A study of Mus musculus with 6 samples.

Results

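Hox cluster genes were examined in RNA sequencing of mouse peritoneum, as every row of the count table whose symbol is Hox followed by a cluster letter from a to d and a number. The rule found 31 members among 14943 gene symbols. The mouse annotation (GENCODE vM21, GRCm38) holds 39 such genes, and the other 8 (Hoxb1, Hoxb13, Hoxc11, Hoxc12, Hoxc13, Hoxd1, Hoxd3 and Hoxd12) were not analysed here. All 6 libraries came from wild-type male C57BL/6J mice, 8 weeks old. In the 3 libraries of encapsulating peritoneal sclerosis (EPS, in which fibrous tissue comes to wrap the bowel), mice had daily intraperitoneal 4.25% peritoneal dialysis solution at 100 mL/kg together with 0.3 mL of an agent labelled SHS, and lipopolysaccharide (LPS) at 4 mg/kg once a week. The 3 control libraries came from mice given an equal volume of saline, and peritoneum was taken in week 3. The EPS group therefore carries 3 agents at once, and their separate parts cannot be told apart. The labels do not say whether each library is a separate animal, so p-values measure only the spread between these samples.

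Hox genes encode homeodomain transcription factors that lie in 4 clusters and give cells of the embryo their position along the body axis. The genes of a cluster are numbered from the 3' to the 5' end, and genes of the same number in different clusters form a paralogue group. Low numbers are used towards the head and high numbers towards the tail, and adult fibroblasts, smooth muscle and fat keep much of the pattern of the place they came from. The highest numbers are known for the limbs and the urogenital tract. Hox proteins bind DNA together with the TALE homeodomain partners Pbx and Meis, and Polycomb and Trithorax complexes hold the clusters silent or active.

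From the first to the last member described, the clusters lay at chr6:52162417-52260880 (Hoxa, 11 members in the table), chr11:96271457-96354012 (Hoxb, 8), chr15:102966796-103036852 (Hoxc, 6) and chr2:74668310-74729160 (Hoxd, 6) in GRCm38. For 18 members, RefSeq (GRCm38.p6) gave a window around a transcript start, 20 windows in all. The 250 bases before the start are shown for 5 members on which the results turn: Hoxa5 and Hoxb8 stand for the genes active in control peritoneum, and Hoxa10, Hoxa11 and Hoxd13 for the 5' genes read almost only in a single EPS library. They lie at chr6:52204588-52204837 (minus strand), chr11:96281655-96281904 (plus), chr6:52234940-52235189 (minus), chr6:52245811-52246060 (minus) and chr2:74667975-74668224 (plus). Capitals mark matches, on either strand, to the Hox-Pbx site TGATNNAT or to the TATA box TATAAA, and overlapping matches run together. Hoxa10 has another window, at chr6:52240855-52241104 (minus), which held no match to either and is not shown.
Hoxa5: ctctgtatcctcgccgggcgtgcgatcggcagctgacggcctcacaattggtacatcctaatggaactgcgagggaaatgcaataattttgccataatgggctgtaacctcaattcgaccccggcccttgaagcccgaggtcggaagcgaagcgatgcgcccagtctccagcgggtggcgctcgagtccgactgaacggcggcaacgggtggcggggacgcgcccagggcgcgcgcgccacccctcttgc
Hoxb8: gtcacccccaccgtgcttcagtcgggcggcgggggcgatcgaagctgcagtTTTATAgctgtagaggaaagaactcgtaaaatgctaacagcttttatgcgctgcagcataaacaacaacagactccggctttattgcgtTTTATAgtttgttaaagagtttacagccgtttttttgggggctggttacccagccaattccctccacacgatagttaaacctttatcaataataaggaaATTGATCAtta
Hoxa10: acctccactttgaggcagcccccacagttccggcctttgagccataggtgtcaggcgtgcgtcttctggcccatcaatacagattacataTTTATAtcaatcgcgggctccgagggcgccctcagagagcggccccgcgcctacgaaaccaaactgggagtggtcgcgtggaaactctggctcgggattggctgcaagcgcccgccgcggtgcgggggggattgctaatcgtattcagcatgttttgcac
Hoxa11: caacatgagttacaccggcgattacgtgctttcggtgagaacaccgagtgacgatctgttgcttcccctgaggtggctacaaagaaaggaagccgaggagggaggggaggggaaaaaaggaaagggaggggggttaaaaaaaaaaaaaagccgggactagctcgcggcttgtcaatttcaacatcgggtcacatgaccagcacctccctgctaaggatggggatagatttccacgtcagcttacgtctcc
Hoxd13: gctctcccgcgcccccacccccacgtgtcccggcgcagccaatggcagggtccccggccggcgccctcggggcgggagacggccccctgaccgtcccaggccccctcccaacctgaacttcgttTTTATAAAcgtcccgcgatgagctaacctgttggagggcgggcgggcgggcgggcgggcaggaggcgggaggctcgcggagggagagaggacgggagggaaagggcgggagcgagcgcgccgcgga
The Hox-Pbx letters were in 3 of the 20 windows of Hox members (15.0%; Hoxa2, Hoxb8 and Hoxd11) and in 7.68% of all 32851 windows of the same length. TATA box letters were in 4 of 20 (20%; Hoxa10, Hoxb8, Hoxd13 and Hoxd4) and in 12.4% of all windows. A retinoic acid response element of the DR5 type was in 0 of 20 and in 0.088% of all windows. The Hox windows held a median of 13 CpG dinucleotides (2 to 35), against 6 over all windows. These matches describe letters in the windows.

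Library totals ran from 15419232 to 17684229 counts, and 13980 genes were tested. Levels are given as CPM, counts scaled to library size after TMM normalization. A gene with 0 counts in a library may lie anywhere up to 0.141 to 0.214 CPM, the worth of 3 counts. The labelled tissue was checked against 10 mesothelial markers, of which all were in the table and none was at 0 in all controls: their summed level was 161 to 244 CPM in controls and 54.0 to 382 CPM in EPS. A pair of EPS libraries stood apart. EPS 1 held 104 genes that were at least 20-fold above every other library (at 1 CPM or more, 0.1 CPM added), none of them Hox, which took 26.9% of its counts. Its 10 exocrine pancreas markers summed to 154902 CPM, against 166 and 512 CPM in EPS 2 and EPS 3. Controls 1, 2 and 3 had 3680, 3459 and 329 CPM. EPS 2 held 46 such genes, among them Hoxa10, Hoxa11, Hoxd11 and Hoxd13. The same library held epididymis and vas deferens transcripts: 10 of 20 markers, a list chosen after these values were seen, were in the table and summed to 1285 CPM there and to 0.132 to 1.46 CPM in the other 5. Controls and EPS 3 had 0 such genes, though a gene that is high in more than 1 library cannot meet this rule. Results are therefore given with and without EPS 1 and EPS 2.

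In control peritoneum the Hox code was centred on paralogue groups 4 to 8. All Hox genes summed to 388, 403 and 384 CPM, and 24 of 31 members had a mean of at least 1 CPM. The summed level was 102 ± 4.43 CPM in group 8 (SD, n = 3), 80.5 ± 4.38 in group 6, 58.5 ± 3.56 in group 4, 54.6 ± 1.38 in group 5 and 48.8 ± 3.78 CPM in group 7. Groups on both sides were lower: 25.5 ± 3.53 CPM in group 3 and 4.24 ± 0.403 in group 2, and 14.6 ± 0.746 CPM in group 9, 1.31 ± 0.739 in group 10 and 0 counts in group 11. Summed per kilobase of exon, groups 6 and 8 gave 38.9 and 37.5 CPM per kb, and groups 4, 5 and 7 gave 24.9, 22.8 and 22.3 CPM per kb. By cluster, Hoxb gave 157 ± 5.29 CPM, Hoxc 115 ± 5.28, Hoxa 85.1 ± 2.90 and Hoxd 34.2 ± 3.65 CPM.

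Levels of single genes were compared per kilobase of exon too. Hoxb6, a gene of lateral plate mesoderm, was the highest at 19.9 ± 0.756 CPM per kb (SD, n = 3). Next came Hoxc6 at 16.2 ± 1.09 and Hoxb8 at 15.4 ± 0.655 CPM per kb, which did not differ beyond their spread. Hoxc8 (12.98 ± 1.18), Hoxa5 (11.7 ± 0.237), Hoxb7 (11.4 ± 1.83), Hoxb4 (10.97 ± 0.469) and Hoxa7 (10.9 ± 0.332 CPM per kb) followed. From Hoxa5 to Hoxa7 neighbours in the order lay within their spread.

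**Figure D1:**
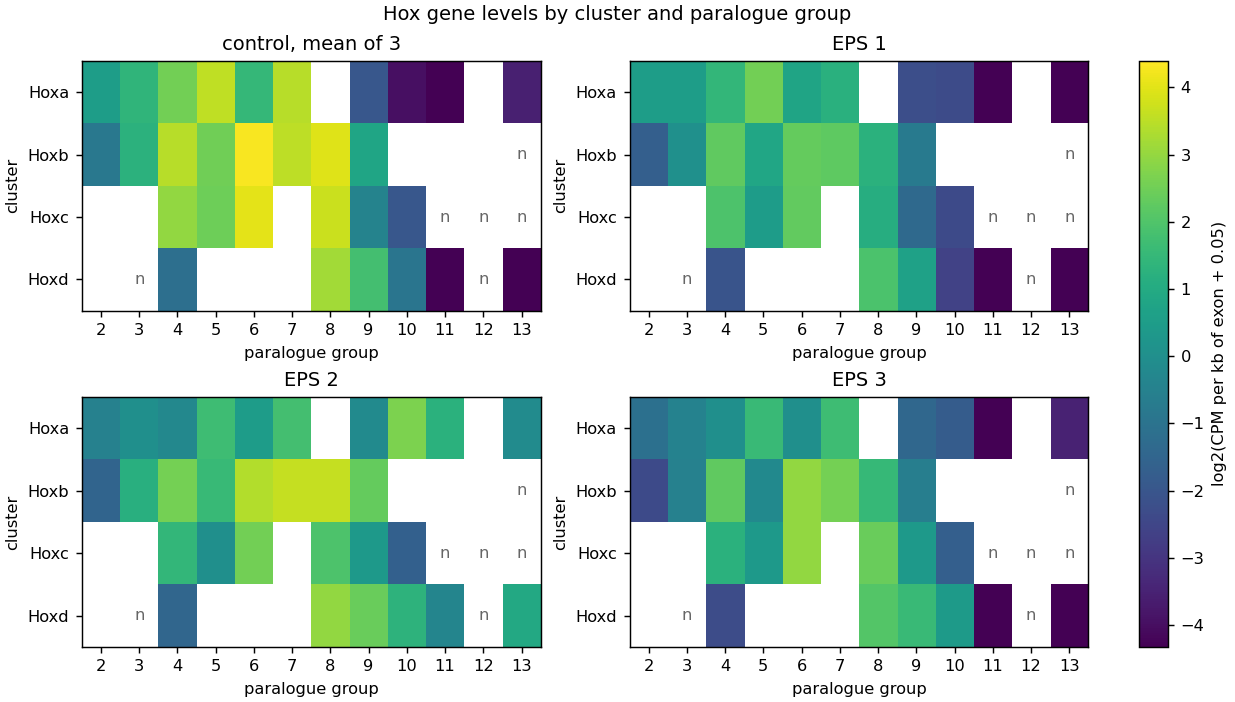
Level of each Hox gene by cluster (rows) and paralogue group from 2 to 13 (columns), as log2 of CPM per kb of exon plus 0.05, in the mean of the 3 controls and in each EPS library. White squares hold no gene and n marks an annotated gene not analysed here; in controls the band at groups 4 to 8 is brightest, and Hoxa10, Hoxa11, Hoxd11 and Hoxd13 are brighter in EPS 2 than in any other panel.

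In groups 1 to 8, 13 of 20 members were called lower in EPS and 7 were not called. In groups 9 to 13, 6 of 11 members were tested and 0 were called. Of 26 members tested, 13 fell and 0 rose (edgeR quasi-likelihood test, adjusted p under 0.05). Over all genes tested the shares were 30.4% lower and 29.2% higher. The median log2 fold change (EPS over control) was -1.12 over the 26 members and -0.02 over all genes. At an unadjusted p under 0.05 the number of members higher was also 0, and DESeq2 and limma-voom called 0 higher. Every one of the 20 members of groups 1 to 8 had a negative estimate, from -2.20 to -0.57. The 6 tested members of groups 9 to 13 ranged from -0.09 to 1.46, and 0 of them were called. In 17 of 26 members, all of groups 1 to 8, the 3 EPS libraries lay below the 3 controls without overlap; over all genes that share was 35.4%. In bulk tissue fewer cells of a type and less RNA per cell cannot be told apart.

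The 2 libraries that stood apart moved these counts. Without EPS 2, 16 of 26 members fell and 0 rose (edgeR; 0 higher at an unadjusted p under 0.05), against 29.5% lower and 28.0% higher over all genes, and the median was -1.34. Of these, 12 were among the 13 called with all libraries; Hoxa6 was no longer called, and Hoxb3, Hoxb7, Hoxb8 and Hoxb9 were. Without EPS 1, 13 of 27 members fell and 4 rose (Hoxa9, Hoxa10, Hoxc9 and Hoxd10), against 28.8% lower and 31.0% higher over all genes. In that fit Hoxa2 was newly called lower, and Hoxd8 was no longer called. Hoxa10 passed the filter there only through its EPS counts, so it could be called only higher. The same limit holds for Hoxa10 with EPS 3 alone, where it had 16 counts, against 0, 1 and 1 in controls. With EPS 3 as the only EPS library, 20 of 27 fell and Hoxa10 and Hoxd10 rose, with the spread taken from the controls; over all genes 31.4% were lower and 33.7% higher in that fit.

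**Figure D2:**
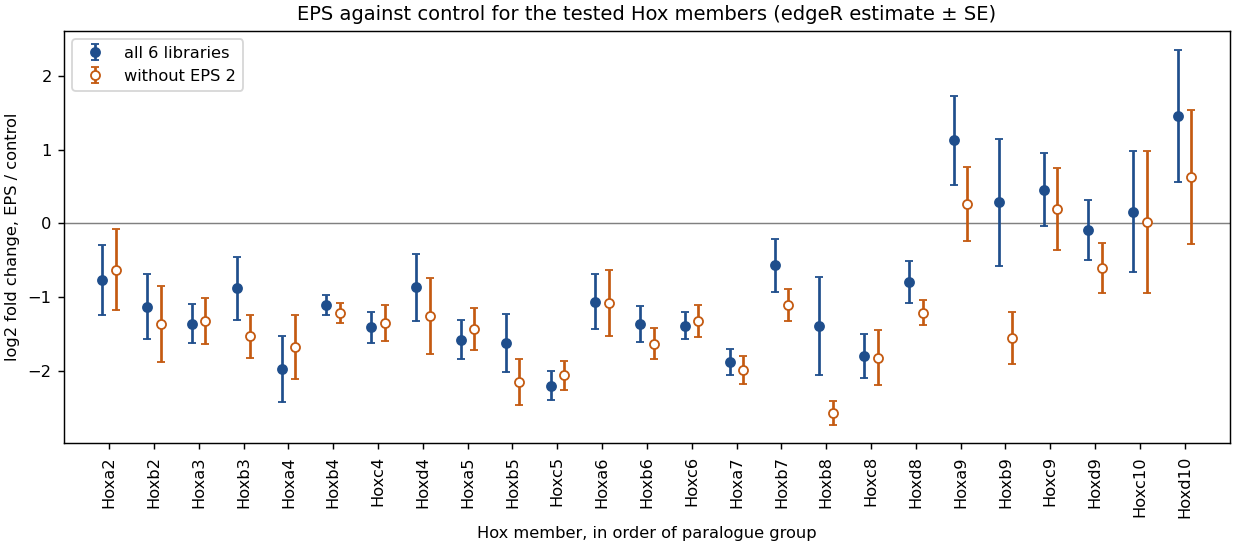
Log2 fold change of EPS over control with its standard error for 25 tested Hox members, in order of paralogue group (x axis), with all 6 libraries (filled) and without EPS 2 (open). The 19 members shown of groups up to 8 lie below 0 in both fits, from -2.20 to -0.57 with all libraries, and leaving out EPS 2 moves Hoxb8 and Hoxb9 the most.

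Members of groups 2 and 3 pattern the hindbrain and the pharyngeal region in the embryo. Hoxa3, needed for the thymus and parathyroid, had 15.4, 17.1 and 13.8 CPM in controls and 8.31, 5.73 and 4.06 CPM in EPS 1, EPS 2 and EPS 3. It fell by 1.36 ± 0.264 on the log2 scale (SE; edgeR adjusted p = 0.00259), 2.56-fold, and the groups did not overlap. Hoxb3 had 10.3, 11.8 and 8.14 CPM in controls and 4.23, 9.35 and 2.77 CPM in EPS, so that EPS 2 lay within the control range. Its estimate was -0.88 ± 0.429 (adjusted p = 0.113), and -1.53 ± 0.295 without EPS 2 (edgeR adjusted p = 0.00364). Of the bases in Hoxb3 exons, 52.9% are shared with the noncoding gene Hoxb3os, as are 27.3% in Hoxb2. Shares with other genes are 27.1% in Hoxa3, 15.0% in Hoxa2 and, in group 4, 16.0% in Hoxa4. Without strand, reads of shared bases cannot be assigned to either gene with certainty. Hoxa2 and Hoxb2, hindbrain genes, were low, with control means of 2.46 ± 0.405 and 1.78 ± 0.484 CPM. Across the EPS libraries Hoxa2 had 2.49, 1.17 and 0.743 CPM, and Hoxb2 had 0.901, 1.03 and 0.495 CPM. Neither passed the test (edgeR adjusted p = 0.198 and 0.0541), and the groups overlapped for Hoxa2 but not for Hoxb2. Without EPS 1, Hoxa2 was called lower (log2 -1.29 ± 0.421, edgeR adjusted p = 0.0276), and without EPS 2 it was not (adjusted p = 0.357).

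Groups 4 and 5, which mark the neck and upper chest, held some of the most even changes. Hoxb4, known for its effect on blood stem cells, had 27.9, 29.5 and 27.1 CPM in controls and 12.1, 15.0 and 12.1 CPM in EPS. The 3 EPS libraries were close together, and the gene fell 2.15-fold (log2 -1.11 ± 0.140, edgeR adjusted p = 0.000268). Hoxc4 went from 18.3, 21.7 and 20.1 to 9.84, 6.95 and 5.94 CPM, and fell 2.65-fold (-1.41 ± 0.208, adjusted p = 0.000612). Hoxa4 had 8.21, 10.1 and 8.93 CPM in controls and 4.23, 1.27 and 1.54 CPM in EPS (-1.98 ± 0.449, adjusted p = 0.00599), with EPS 1 the highest of the EPS libraries. Hoxd4 was near 1 CPM in controls (1.07, 1.06 and 1.46) and had 0.554, 0.940 and 0.446 CPM in EPS. It did not pass the test (edgeR adjusted p = 0.133), and 52.3% of its exon bases are shared with other genes.

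In group 5, Hoxc5 had the most negative estimate of any tested member. It had 16.6, 15.5 and 18.9 CPM in controls and 4.23, 2.96 and 3.91 CPM in EPS, and fell 4.60-fold (log2 -2.20 ± 0.199, edgeR adjusted p = 4.13e-05). Every EPS library was below every control by a wide margin. Hoxa5, which acts in lung and diaphragm development, had 21.9, 22.5 and 21.7 CPM in controls, a very narrow range, and 10.9, 5.97 and 5.50 CPM in EPS. It fell 2.98-fold (-1.57 ± 0.261, adjusted p = 0.00113). Hoxb5 had 14.9, 16.4 and 15.5 CPM in controls and 4.78, 8.08 and 2.33 CPM in EPS (-1.62 ± 0.396, adjusted p = 0.00913), with EPS 2 the highest EPS library.

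Groups 6 to 8 are the trunk genes. Hoxb6 had 39.3, 40.4 and 37.5 CPM in controls and 9.70, 20.4 and 15.4 CPM in EPS, and fell 2.56-fold (log2 -1.36 ± 0.246, edgeR adjusted p = 0.00197). Hoxc6 went from 39.2, 41.6 and 36.3 to 11.8, 13.8 and 19.1 CPM (-1.39 ± 0.187, adjusted p = 0.000369). In both genes the groups were far apart, but EPS 2 ranked highest of the EPS libraries in Hoxb6 and in the middle in Hoxc6. Hoxa6, at 3.00, 2.31 and 1.92 CPM in controls and 1.46, 1.17 and 0.842 CPM in EPS, was close to the threshold (-1.06 ± 0.372, adjusted p = 0.0377; 0.0754 without EPS 2).

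Hoxa7, 20.4% of whose exon bases are shared with Hoxaas3, had 32.3, 30.4 and 31.1 CPM in controls and 6.51, 9.77 and 9.12 CPM in EPS, and fell 3.68-fold (log2 -1.88 ± 0.175, edgeR adjusted p = 4.85e-05). Its paralogue Hoxb7 had 20.7, 15.2 and 16.9 CPM in controls and 7.14, 19.2 and 9.12 CPM in EPS. The EPS 2 library thus lay within the control range for Hoxb7 and far below it for Hoxa7. Hoxb7 gave -0.57 ± 0.358 (adjusted p = 0.207) with all libraries and -1.11 ± 0.213 (edgeR adjusted p = 0.00355) without EPS 2.

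In group 8, EPS 2 lay closer to the controls for Hoxb8 and Hoxd8 than for Hoxc8. Hoxc8, a gene of thoracic identity, had 35.4, 40.6 and 34.3 CPM in controls and 5.89, 10.9 and 14.7 CPM in EPS, and fell 3.48-fold (log2 -1.80 ± 0.300, edgeR adjusted p = 0.00142). Hoxb8, known from myeloid progenitors, had 38.7, 42.0 and 41.3 CPM in controls and 6.17, 32.6 and 7.48 CPM in EPS. EPS 1 and EPS 3 were close to each other, and EPS 2 lay 4.35 times above EPS 3, just under the controls. The estimate of Hoxb8 was -1.39 ± 0.661 with all libraries (edgeR adjusted p = 0.120), where limma-voom gave -1.73 ± 0.501 and called it lower (adjusted p = 0.0186). It was -2.57 ± 0.161 without EPS 2 (edgeR adjusted p = 2.28e-05), the most negative of any member in that fit. Hoxd8 had 23.3, 23.4 and 27.8 CPM in controls and 10.2, 21.4 and 11.2 CPM in EPS (-0.80 ± 0.282, adjusted p = 0.0409), again with EPS 2 next to the controls. Neither Hoxa6 nor Hoxd8 was called when any single control was left out. The same held without EPS 3 (edgeR adjusted p = 0.0927 for Hoxa6 and 0.113 for Hoxd8). Hoxd8 was also not called without EPS 1 (edgeR adjusted p = 0.0931).

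Group 9 genes mark the lower trunk, and with all libraries 0 of 4 passed the test. Hoxd9, the most abundant, had 6.21, 7.07 and 8.73 CPM in controls and 3.26, 11.1 and 6.29 CPM in EPS (log2 -0.09 ± 0.410, edgeR adjusted p = 0.871). Hoxb9, which shapes the rib cage, had 4.78, 5.09 and 3.31 CPM in controls and 1.39, 12.97 and 1.59 CPM in EPS. EPS 2 stood above every control and the other EPS libraries below every control, so the estimate of 0.29 ± 0.860 (adjusted p = 0.793) became -1.55 ± 0.355 without EPS 2 (edgeR adjusted p = 0.00781). Hoxa9, best known from leukaemia, had 18, 13 and 20 counts in controls and 13, 102 and 37 counts in EPS. Hoxc9 had 22, 23 and 30 counts in controls and 12, 66 and 60 in EPS. For both, EPS 1 was the lowest and EPS 2 the highest of the EPS libraries. Without EPS 1 their log2 fold changes were 1.58 ± 0.477 (edgeR adjusted p = 0.0199) and 0.91 ± 0.339 (adjusted p = 0.0453), and without EPS 2 they were 0.26 ± 0.497 and 0.19 ± 0.560 (adjusted p = 0.672 and 0.782). With all libraries neither passed (edgeR adjusted p = 0.141 and 0.451).

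The 5' genes of groups 10 to 13 were nearly silent in controls, and most of their EPS counts came from EPS 2. Hoxa10, a gene of the uterus and the male reproductive tract, had 0, 1 and 1 counts in controls and 7, 436 and 16 in EPS 1, EPS 2 and EPS 3. All 3 EPS libraries were above all controls, but the gene did not pass the filter on low counts with all 6 libraries. It did pass when EPS 1 was left out, and was then called higher (edgeR adjusted p = 0.0269). Hoxa10 passed only through its EPS counts, so it could be called only higher, and the call adds nothing to the counts. No fold is given, since the controls hold 2 counts in all. Hoxd10, a gene of hindlimb motor neurons, had 16, 16 and 6 counts in controls and 3, 95 and 48 in EPS. It gave 1.46 ± 0.893 with all libraries (edgeR adjusted p = 0.195), 2.04 ± 0.505 without EPS 1 (adjusted p = 0.00784) and 0.63 ± 0.907 without EPS 2 (adjusted p = 0.577).

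Hoxa11 and Hoxd11, which act in the forearm and kidney, had 0 counts in each of the 3 controls, in EPS 1 and in EPS 3, and 112 and 65 counts in EPS 2. Hoxd13, a gene of digits and genital structures, had 99 counts in EPS 2 and 0 in each other library. Hoxa13 had 46 counts in EPS 2 and 0 to 4 elsewhere. All 4 of these genes were below the filter. Exon bases of Hoxa11 are shared with Hoxa11os to 35.0%. Hoxc10, a gene of hindlimb and posterior fat, had a different pattern, with 13, 2 and 2 counts in controls and 4, 11 and 10 in EPS, and it did not pass the test (log2 0.16 ± 0.817, edgeR adjusted p = 0.876).

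**Figure D3:**
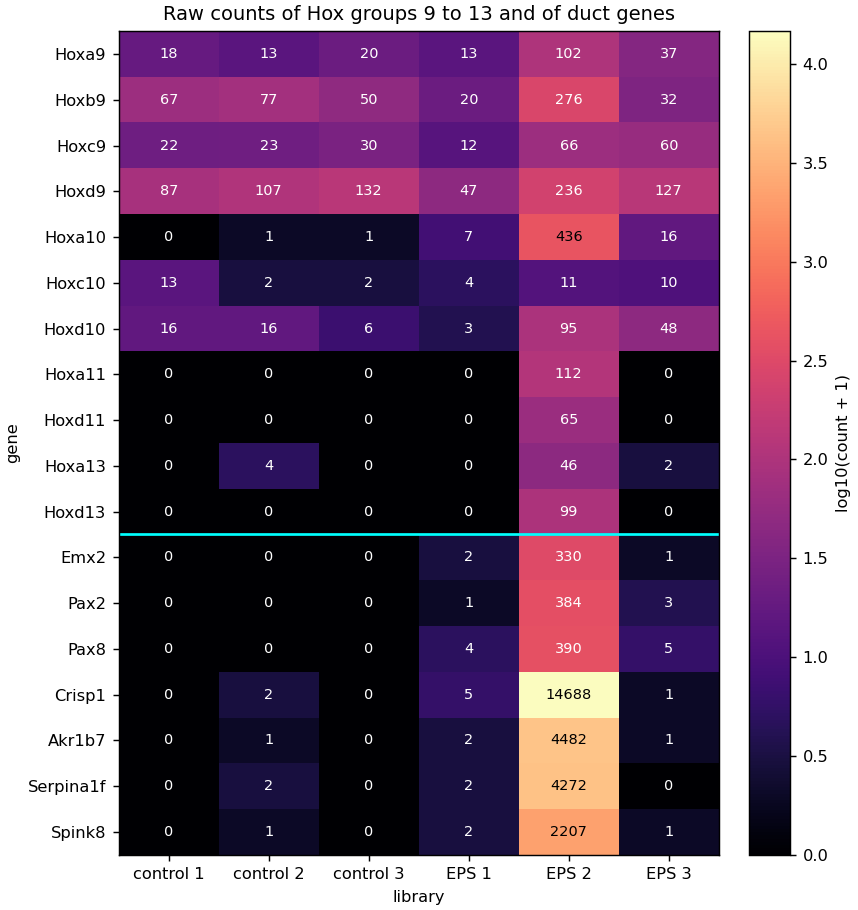
Raw counts, as log10 of count plus 1, of Hox genes of groups 9 to 13 (above the line) and of genes of the epididymis, vas deferens and other urogenital ducts (below it: Emx2, Pax2, Pax8, Crisp1, Akr1b7, Serpina1f and Spink8) in each of the 6 libraries. Every gene shown except Hoxc10 has its highest count in EPS 2, where Hoxa10 had 436 counts and Crisp1 14688.

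Other transcription factors of the urogenital tract had the same distribution: Pax2 had 384 counts, Pax8 390 and Emx2 330 in EPS 2, and 0 to 5 in each other library. Crisp1, a secreted protein of the epididymis, had 14688 counts there and 0 to 5 elsewhere. Whether these transcripts and the 5' Hox counts of EPS 2 share a source was not tested.

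The balance of the code shifted with the library. Groups 9 to 13 gave 4.11%, 3.98% and 4.15% of all Hox counts in controls and 5.67%, 27.8% and 11.5% in EPS 1, EPS 2 and EPS 3. Their summed level was 15.9, 16.1 and 15.9 CPM in controls and 7.34, 72.5 and 16.4 CPM in EPS. Groups 1 to 8 summed to 372, 387 and 368 CPM in controls and to 122, 188 and 127 CPM in EPS, a loss seen in each of the 3 EPS libraries. In EPS 1 both sums were lower than in every control. In EPS 3 the sum of groups 9 to 13 was near the controls but held genes that went both ways. There Hoxb9 stood at 0.361 times the control mean and Hoxd10 at 2.75 times, in 1 library and without a test. The mean paralogue number, weighted by counts, was 6.09, 6.04 and 6.12 in controls and 5.64, 7.24 and 6.42 in EPS.

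**Figure D4:**
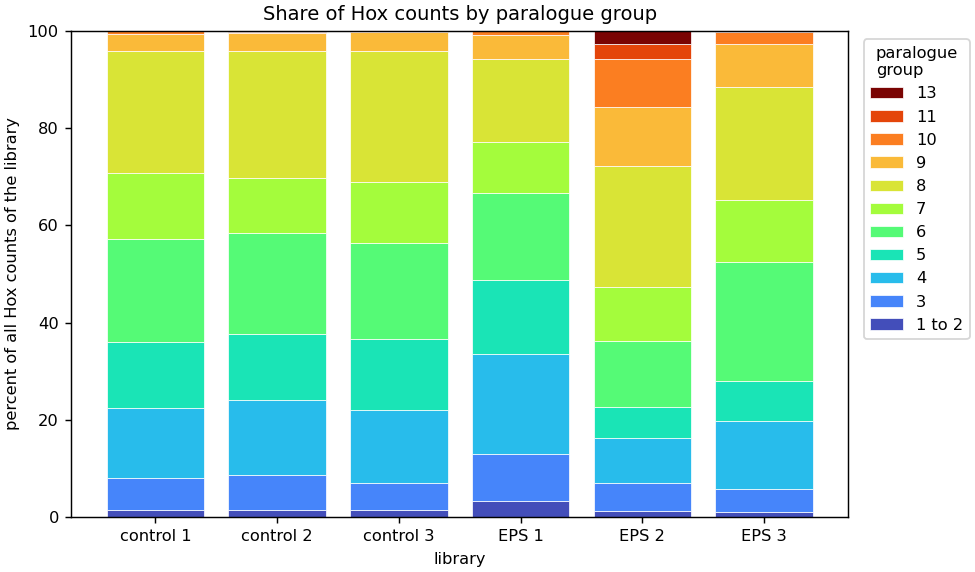
Share of all Hox counts of a library (y axis, percent) by paralogue group, stacked from groups 1 and 2 at the bottom to group 13 at the top, in the 3 controls and 3 EPS libraries. Groups 9 to 13 fill 3.98% to 4.15% of each control bar and 5.67%, 27.8% and 11.5% of EPS 1, EPS 2 and EPS 3.

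Relative to controls, the 4 clusters were spread most widely in EPS 2. The summed Hoxd level there stood at 1.33 times the control mean, Hoxb at 0.754, Hoxa at 0.686 and Hoxc at 0.332 times. EPS 3 gave 0.595, 0.326, 0.290 and 0.410 for Hoxd, Hoxb, Hoxa and Hoxc. In EPS 1 they stood at 0.415, 0.295, 0.422 and 0.286. For groups 1 to 8 alone, the EPS 2 values were 0.857 for Hoxd, 0.691 for Hoxb, 0.307 for Hoxa and 0.307 for Hoxc. The anterior and trunk genes of Hoxa and Hoxc were thus low in EPS 2, and the higher Hoxa sum there came from groups 9 to 13, at 25.4 times the control mean. Among members with counts in EPS 3 the ratio of EPS 2 to EPS 3 was lowest for Hoxc6 (0.722) and Hoxc8 (0.741). It was highest for Hoxb8 (4.35), Hoxb9 (8.18), Hoxa13 (21.8) and Hoxa10 (25.8). EPS 3 held only 2 counts of Hoxa13 and 16 of Hoxa10. These ratios are 1 library against 1 and carry no test.

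Genes for the partners and regulators of Hox genes were counted in the same fit. Of 11 tested TALE cofactors, 4 rose and 0 fell (edgeR), with a median log2 fold change of -0.03. Without EPS 2, 4 rose and 2 fell, and without EPS 1, 4 rose and 1 fell. Tgif1, a TALE repressor of TGF-beta signalling, rose from 10.4 ± 1.10 to 32.0 ± 1.40 CPM (log2 1.62 ± 0.136), and Pknox1 and Pknox2 rose by 0.98 ± 0.146 and 1.34 ± 0.289. The Hox partners Pbx2, Pbx3, Meis1, Meis2 and Meis3 did not pass the test. Of 24 Polycomb genes 12 rose and 2 fell (median 0.28). Among them Ezh2, the H3K27 methyltransferase, rose from 6.47 ± 1.82 to 24.4 ± 4.89 CPM, by 1.91 ± 0.240, Phf19 by 2.05 ± 0.200 and Eed by 0.75 ± 0.131. Of 13 Trithorax and related genes 8 rose and 0 fell (median 0.41), and those of lowest adjusted p were Ctcf, an insulator protein (0.77 ± 0.099), Psip1 (0.82 ± 0.156) and Rbbp5 (0.43 ± 0.097). Beside these counts stand the shares over all genes, 29.2% higher and 30.4% lower.

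Retinoic acid is a known inducer of 3' Hox genes. Of 14 tested genes of its pathway 4 rose and 6 fell (median -0.20). Stra6, a receptor for retinol-binding protein, rose from 1.10 ± 0.302 to 16.6 ± 4.08 CPM (log2 3.90 ± 0.302), whereas the receptor Rxrg fell from 16.0 ± 1.39 to 4.53 ± 0.586 CPM (-1.82 ± 0.178). These shares, and those of the next list, stand beside 29.2% higher and 30.4% lower over all genes. Of 20 other transcription factors of position 5 rose and 5 fell (median -0.37). Without EPS 2, 4 rose and 9 fell (median -0.64), and without EPS 1, 6 of 21 rose and 5 fell (median 0.23). Hand2 and Hand1, of lateral plate mesoderm, fell by 1.70 ± 0.233 and 3.43 ± 0.700, and Gata6 rose by 0.73 ± 0.130. Of the Cdx and ParaHox list 2 genes were in the table and 0 were tested. The 12 listed noncoding genes of the clusters were not analysed here.

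Some lists of cell type markers fell with the Hox genes and others rose, and their part in the result was not tested. Of 7 smooth muscle markers tested, 5 fell and 0 rose (6 fell without EPS 2 and 3 without EPS 1). They summed to 4951 to 5465 CPM in controls and to 1393, 3659 and 1243 CPM in EPS 1, EPS 2 and EPS 3, with Tagln near 0 in each library. Adipocyte markers, all 10 of which fell, summed to 28289 to 29038 CPM in controls and 2574 to 4274 CPM in EPS. Blood endothelial markers, of which 7 of 7 fell, summed to 2168 to 2392 CPM in controls and 925 to 1132 CPM in EPS. Fibroblast markers (7 of 10 rose and 1 fell) were higher, at 3692 to 3930 CPM in controls and 7634 to 12996 CPM in EPS. The 10 leukocyte markers all rose, with sums of 425 to 487 CPM in controls and 2730 to 3698 CPM in EPS. Beside these counts stand the shares over all genes, 30.4% lower and 29.2% higher. None of the markers in these 5 lists was at 0 in all controls.

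**Figure D5:**
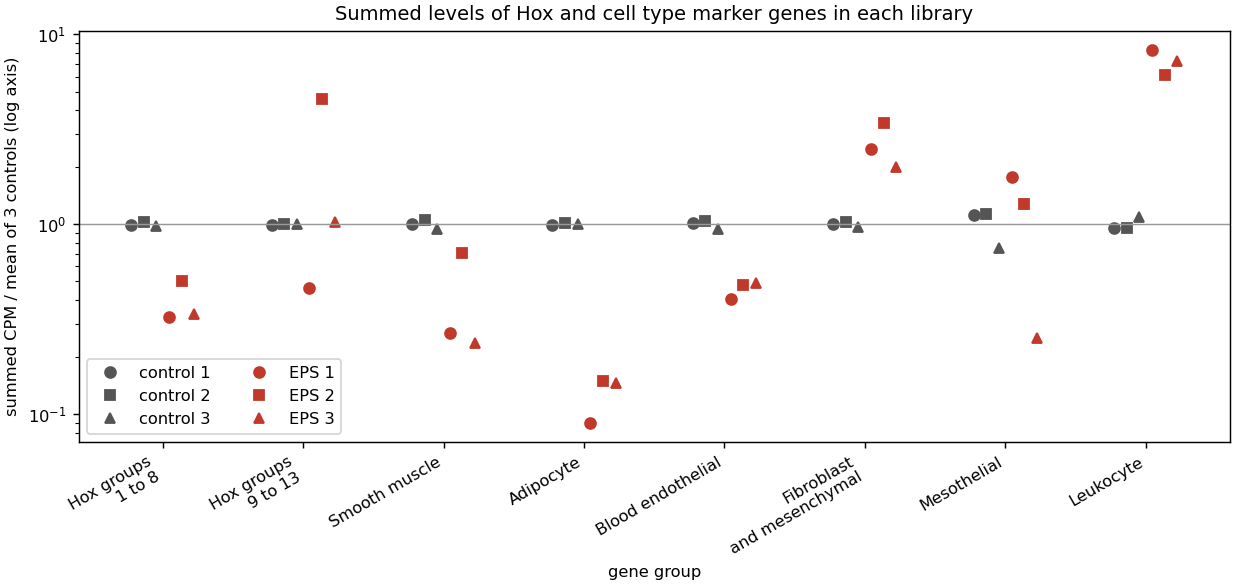
Summed CPM of Hox groups 1 to 8, Hox groups 9 to 13 and 6 cell type marker lists in each library, divided by the mean of the 3 controls (log y axis). Hox groups 1 to 8 lie at 0.325, 0.501 and 0.338 in EPS 1, EPS 2 and EPS 3, smooth muscle at 0.267, 0.701 and 0.238, and leukocyte markers above 6 in all 3.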

How the data were processed

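Polyadenylated RNA of 6 peritoneum libraries (3 control, 3 EPS) was sequenced after Trizol extraction and random-primed copying of 3 µg of input RNA, per the labels' protocols, with no strand step named. The submitters' processing notes name mm10. Aligner, counter and gene annotation were not given in the sources used here, and the authors deposited raw counts per gene symbol, with no normalization. Library totals ran from 15419232 to 17684229, and no column was left unused.

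Counts were filtered with filterByExpr, scaled by TMM and tested over 13980 genes with edgeR (4.0.16, in R 4.3.3), using its quasi-likelihood test with the robust option, with Benjamini-Hochberg adjustment and a threshold of 0.05. The ± of a CPM is the SD and that of a log2 fold change its SE, the estimate over the square root of F. Levels per kb use union exons of GENCODE vM21. RefSeq promoter windows were matched by symbol. The procedure was run on simulated data in which unchanged genes shared a mean over all libraries and the dispersion was fixed. That setting is simpler than these libraries, so it checks only that the procedure runs as written. Members with a mean of at least 1 CPM in either group, which were 29 of 31, are described in every library, except that some genes named by these rules are not reported here, the other members by counts, and up to 3 called genes of lowest adjusted p are named from each pathway list. The Hox members and the 19 gene lists were chosen with earlier results of these data known, and 1 more list (epididymis and vas deferens) after these counts were seen. Alternatives were RLE, upper quartile and library total scaling, no filter, DESeq2 1.42.0, limma-voom (limma 3.58.1), a replicate block, each library left out, and 3 combinations added after the data were seen.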

Additional observations from a re-analysis of the deposited data

How the results depend on the processing

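All 20 members of groups 1 to 8 kept a negative estimate under each of the 17 alternatives. Of the 13 members called lower, 11 were called under all 17 (Hoxa3, Hoxa4, Hoxa5, Hoxa7, Hoxb4, Hoxb5, Hoxb6, Hoxc4, Hoxc5, Hoxc6 and Hoxc8), Hoxd8 under 9 and Hoxa6 under 6. The number of members lower was 11 to 16 with 1 library left out, and without EPS 3 it was 11. The number higher, 0 with all libraries, was 0 to 4 with 1 library left out. It was 4 without EPS 1, among them Hoxa10, which passed the filter only through its EPS counts. It was 1 with library totals only (Hoxa9) and 1 without the filter on low counts (Hoxa10). Scaling by library totals only moved the median log2 fold change of all genes from -0.02 to 0.41 and of the Hox members from -1.12 to -0.69; the genes called lower went from 4245 to 2182 (2457 with EPS 2 also left out), and the share of calls that were higher from 49.1% to 72.2%. Hoxb9 had an estimate of 0.29 with all libraries, -0.35 by limma-voom, -0.42 with the replicate block, -1.55 to 0.78 with 1 library left out, -1.36 with EPS 1 and EPS 2 left out, -1.46 without EPS 2 and with the mean of controls 1 and 2 as 1 sample, and -1.19 with library totals and EPS 2 left out. Hoxd9 had -0.09 with all libraries, 0.40 with library totals only and -0.61 to 0.31 with 1 library left out; apart from EPS 2 for Hoxb9, the cause was not tested. With the replicate number as a block 14 members were lower and 0 higher; same-numbered libraries correlated at 0.201, -0.095 and 0.236, control 2 correlated best with EPS 1, and the numbers were taken as names only. Controls 1 and 2 were closer to each other (mean chi-square over genes 4.41) than either was to control 3 (15.9 and 16.4); averaged as 1 sample they left 11 members lower and 0 higher. At this depth a level under 0.141 to 0.214 CPM cannot be told from 0.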
